A study of Homo sapiens with 12 samples.

Results

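ACTA2, TAGLN, PDGFRB, PDGFRA, POSTN, LUM, DCN, FN1, TWIST1 and SPARC, 10 genes commonly used to mark fibroblasts, smooth muscle cells and related mesenchymal cells, were followed through cultures of human microglia-like cells. The genes were picked by name out of the 62703 rows of the deposited count table, with collagens left out by rule, and all 10 had a row. The cultures were iMGLs, microglia-like cells grown from the established human iPSC line WTC11 by way of hematopoietic precursors. The isogenic clones came from CRISPR editing of this line. Clones J, K and L were WT controls, which the series also calls scrambled, and in LACTB KO the clones were A, B and C. LACTB is a mitochondrial protein related to bacterial beta-lactamases. Every clone is a single edited line, was grown in 2 separate differentiations without further treatment, and gave 1 polyA RNA-seq library from each, so that each genotype had 6 libraries of 3 clones. All cultures received IL34, TGFb and MCSF, and CX3CL1 and CD200 during the last days. A library is named here by its clone and differentiation, so that J1 is WT clone J in differentiation 1.

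Mesenchymal cells such as fibroblasts, pericytes and smooth muscle cells build and remodel the extracellular matrix and, when activated, assemble contractile actin fibers. ACTA2 (smooth muscle actin) and TAGLN (transgelin, an actin-binding protein) belong to the contractile apparatus, and PDGFRB and PDGFRA are the receptors for platelet-derived growth factors that drive growth and migration of these cells. TWIST1 is a transcription factor of embryonic mesenchyme. FN1 (fibronectin), SPARC (a collagen-binding glycoprotein) and POSTN (periostin) are secreted into the matrix, as are LUM (lumican) and DCN (decorin), small leucine-rich proteoglycans that bind collagen fibrils. Microglia derive from the yolk sac hematopoietic lineage and are not mesenchymal cells in this sense, although macrophages can transcribe some of these genes, FN1 among them.

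Upstream sequence is shown for a contractile and a matrix member that differ in pattern below. Both sequences come from RefSeq on GRCh38.p14, are read 5′ to 3′ on the minus strand and end at the base before an annotated transcript start, and the table held sequences for 6 of the 10 genes (ACTA2, PDGFRB, PDGFRA, POSTN, FN1 and SPARC). In ACTA2, at chr10:88952774-88953023 within the gene, the capitals mark 2 matches to a CArG-like element, the serum response factor motif with exactly 1 inner G or C, at -121 to -112 and -71 to -62. A window before another annotated ACTA2 start, at chr10:88991338-88991587, held no such match and is not shown. In POSTN, at chr13:37598769-37599018, the capitals mark TATAAA at -29 to -24 and, on the other strand, at -182 to -177.
ACTA2: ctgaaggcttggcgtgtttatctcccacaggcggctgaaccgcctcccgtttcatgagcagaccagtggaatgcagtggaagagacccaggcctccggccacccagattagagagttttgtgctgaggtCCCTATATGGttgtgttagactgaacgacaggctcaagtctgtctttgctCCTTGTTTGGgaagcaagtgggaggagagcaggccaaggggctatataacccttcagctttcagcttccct
POSTN: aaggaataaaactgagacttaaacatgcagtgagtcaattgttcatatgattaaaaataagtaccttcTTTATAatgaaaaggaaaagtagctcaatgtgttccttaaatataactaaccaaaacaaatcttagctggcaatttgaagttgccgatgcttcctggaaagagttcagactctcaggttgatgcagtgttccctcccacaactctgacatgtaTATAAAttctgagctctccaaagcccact
Of 34943 promoter windows in the same table, searched on both strands, 5.973% held a CArG-like match, 1.165% a full CArG match and 10.75% TATAAA. A full CArG match has A or T at all 6 inner bases, and the marked matches do not overlap each other. These matches describe letters only.

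Libraries held between 24153233 and 28406943 estimated counts. Values are given as CPM, read counts scaled by library size after TMM normalization, and a count of 3 or fewer, which equals 0.105 to 0.124 CPM depending on the library, was taken as the floor. LACTB stood at 70.9 to 98.1 CPM in the WT libraries and at 7.51 to 9.78 CPM in those of LACTB KO clones A and C, whereas clone B kept 44.3 and 51.7 CPM. The summed level of 21 microglial markers was 11739 to 14410 CPM in WT and 11730 to 12744 CPM in LACTB KO libraries, and all 21 were above the floor in every library. TMEM119, a homeostatic marker, was low at 0.316 to 10.6 CPM. Libraries J1 and K2 stood apart in the 10 marker genes, which took 0.568% and 0.636% of all counts there. Next came B2 with 0.125%, L1 with 0.0949% and J2 with 0.0459%, and the other 7 libraries ranged from 0.00988% to 0.0268%. In bulk RNA, fewer cells of a type and less RNA per cell cannot be told apart. Comparisons between genotypes are given with and without both libraries.

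The range over libraries was wide for every member. The median SD of log2 CPM over the 12 libraries was 2.19 for the 10 members, against 0.271 for the 17577 genes tested between genotypes, and the 8 members among those genes lay between the 97.2 and 99.97 percentile of that spread. In J1, 6 members (ACTA2, PDGFRA, LUM, DCN, TWIST1 and SPARC) had their highest level, and 4 (TAGLN, PDGFRB, POSTN and FN1) had it in K2. For 5 members (ACTA2, TAGLN, PDGFRB, FN1 and SPARC) the 4 highest libraries were J1, K2, L1 and B2. FN1 and SPARC together made up 94.0% of all counts of the 10 genes.

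**Figure D1:**
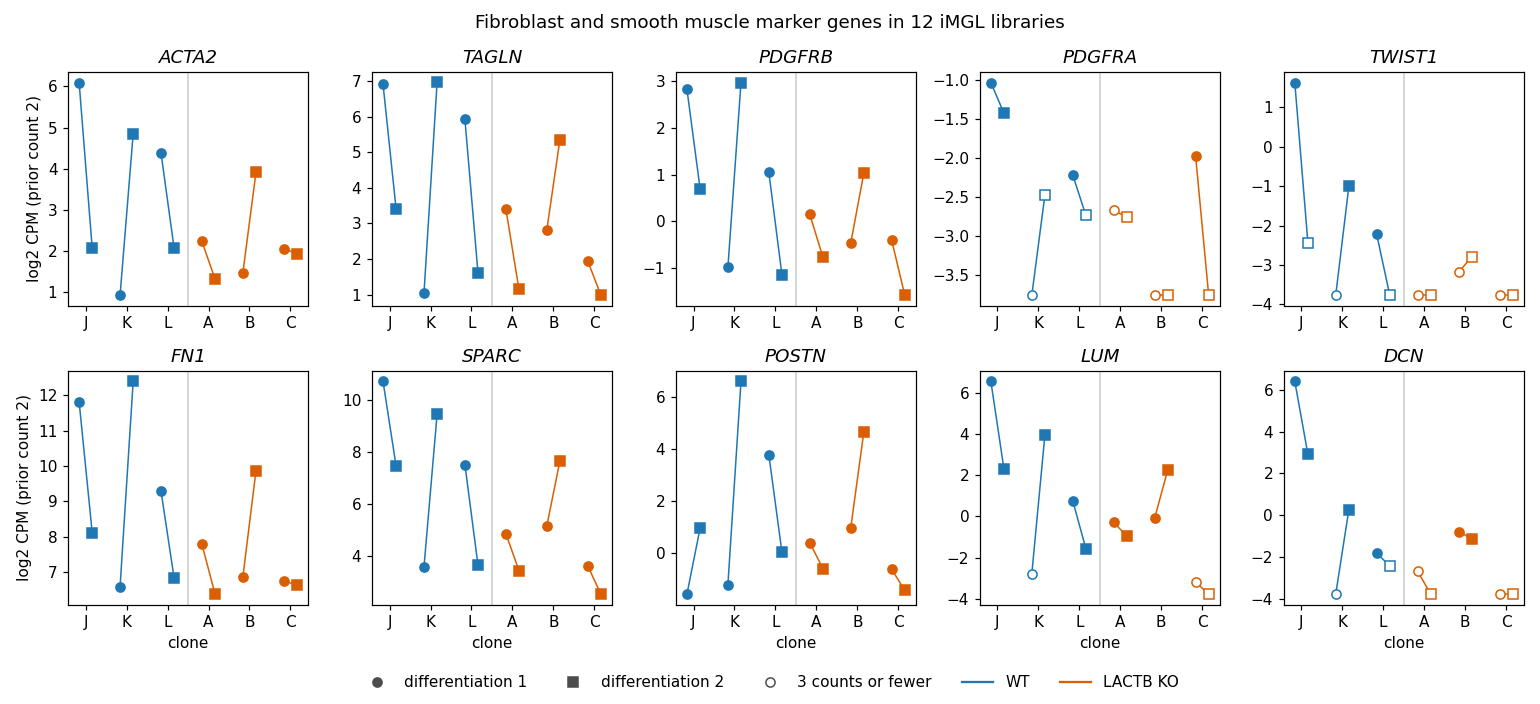
Level of each of the 10 marker genes in 12 iMGL libraries, as log2 CPM with a prior count of 2, by clone (WT J, K and L in blue, LACTB KO A, B and C in orange). Circles are differentiation 1 and squares differentiation 2, a line joins the libraries of a clone, open symbols have 3 counts or fewer, and for most members J1 and K2 stand highest.

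ACTA2 (ENSG00000107796.13, GRCh38 chromosome 10, 88935074 to 88991339, minus strand) was above the floor in all 12 libraries. Among WT libraries its CPM was 68.2 in J1, 28.6 in K2 and 20.8 in L1, against 4.12 in J2, 4.14 in L2 and 1.84 in K1. Among LACTB KO libraries it was 15.0 in B2, against 4.64 in A1, 4.10 in C1, 3.77 in C2, 2.71 in B1 and 2.44 in A2. The highest LACTB KO library, B2, lay below J1, K2 and L1, and the low WT library K1 lay below every LACTB KO library, so that the libraries of both genotypes overlapped. Of the exonic bases of ACTA2, 29.1% also belong to the antisense gene ACTA2-AS1 and 6.88% to FAS on the opposite strand, and because the strand setting of the counting is not given, reads from these cannot be told apart.

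TAGLN (ENSG00000149591.17, chromosome 11, 117199370 to 117207464, plus strand) had the same 4 libraries on top. WT libraries had CPM values of 125 in K2, 120 in J1 and 60.6 in L1, then 10.5 in J2, 2.96 in L2 and 1.98 in K1. LACTB KO libraries had 40.8 in B2, 10.6 in A1, 6.98 in B1, 3.78 in C1, 2.14 in A2 and 1.91 in C2. TAGLN in L1 exceeded every LACTB KO library, and the low libraries of both genotypes overlapped. The ratio of TAGLN to ACTA2 counts was 1.77 in J1 (95% exact binomial interval 1.67 to 1.87) and 4.35 in K2 (4.03 to 4.70), so J1 held relatively more ACTA2 and K2 relatively more TAGLN. It was 2.91 (2.65 to 3.20) in L1 and 2.72 (2.43 to 3.04) in B2, and 0.505 to 1.08 in 5 of the libraries with low TAGLN (K1, L2, A2, C1 and C2). Such intervals cover counting error only. Exons of TAGLN share 34.1% of their bases with PCSK7 on the opposite strand and 38.1% with an unnamed gene on the same strand (ENSG00000280143), so its low counts are uncertain.

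PDGFRB (ENSG00000113721.14, chromosome 5, 150113839 to 150155872, minus strand) was low in all libraries but above the floor in each. Its WT levels ran from 0.379 over a median of 1.78 to 7.79 CPM, and its LACTB KO levels from 0.262 over a median of 0.667 to 1.98 CPM. K2 with 7.79 CPM and J1 with 7.03 CPM were close to each other and well above L1 with 2.00 and B2 with 1.98 CPM. PDGFRA (ENSG00000134853.12, chromosome 4, 54229280 to 54298245, plus strand), which marks many tissue fibroblasts, did not follow its relative. It had 11 counts in J1, 8 in J2, 5 in C1 and 4 in L1, and 3 or fewer in the other 8 libraries, K2 and B2 included. Its highest level was 0.414 CPM, and 16.1% of its exonic bases are shared with another protein-coding gene on the same strand (ENSG00000282278).

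TWIST1 (ENSG00000122691.13, chromosome 7, 19020991 to 19117636, minus strand) was over the floor in 3 libraries only, all of them WT. It had 80 counts (3.01 CPM) in J1, 12 counts (0.423 CPM) in K2 and 4 counts (0.141 CPM) in L1. Of the LACTB KO libraries, B1 had 1 count, B2 had 2 counts and the other 4 had 0, which in those 4 allows up to 0.108 to 0.124 CPM. J1 was thus at least 24.2-fold over the highest floor of a single library.

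FN1 (ENSG00000115414.21, chromosome 2, 215360440 to 215436073, minus strand) was the most abundant member per length, with a median of 9.82 CPM per kb over the libraries. Its CPM was 5361 in K2 and 3594 in J1, then 627 in L1, 277 in J2, 114 in L2 and 96.2 in K1. In LACTB KO it was 935 in B2, 221 in A1, 117 in B1, 108 in C1, 99.5 in C2 and 83.6 in A2. FN1 was thus at 83.6 CPM or more in every library, and 6 of the 12 libraries (K1, L2, A2, B1, C1 and C2) lay within 83.6 to 117 CPM. SPARC (ENSG00000113140.11, chromosome 5, 151661096 to 151686975, minus strand) was next, with a median of 7.03 CPM per kb. It reached 1691 CPM in J1 and 703 CPM in K2, with a WT median of 180 CPM and a lowest WT library of 333 counts (K1). LACTB KO libraries ran from 5.79 over a median of 20.8 to 203 CPM (B2), so the genotypes overlapped. The ratio of FN1 to SPARC counts was 2.12 (95% exact binomial interval 2.10 to 2.15) in J1 and 1.58 (1.52 to 1.63) in J2, against 7.63 (7.52 to 7.74) in K2. The other 9 libraries lay between 3.26 in B1 and 17.2 in C2, so clone J was richest in SPARC relative to FN1 in both differentiations.

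POSTN (ENSG00000133110.15, chromosome 13, 37562583 to 37598844, minus strand) separated libraries J1 and K2 most. It had 2723 counts (95.9 CPM) in K2, 706 (24.9 CPM) in B2 and 386 (13.6 CPM) in L1, but 7 counts (0.263 CPM) in J1, the lowest CPM of all 12 libraries. In the other 8 libraries it stood between 0.299 and 1.88 CPM. The library with the second highest FN1 and the highest SPARC was thus the lowest in POSTN, and K2 exceeded J1 by 365-fold. This fold compares 2 libraries of different clones and has no replicate check.

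LUM (ENSG00000139329.5, 91102629 to 91111494) and DCN (ENSG00000011465.18, 91140484 to 91183217) are neighbors on the minus strand of chromosome 12 with 28989 bases between them. LUM had 2486 counts (93.5 CPM) in J1, 440 (15.5 CPM) in K2, 133 (4.70 CPM) in B2 and 130 (4.82 CPM) in J2, and 3 counts or fewer in K1, C1 and C2. DCN had 2236 counts (84.1 CPM) in J1 and 202 (7.49 CPM) in J2, but only 32 (1.13 CPM) in K2 and 11 (0.388 CPM) in B2. K1, L2, A1, A2, C1 and C2 were at or under the floor for DCN. DCN was 74.6-fold and LUM 6.03-fold higher in J1 than in K2, so the proteoglycans were unequally distributed between the libraries that had the most mesenchymal transcripts.

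The ratios within a library differed between clone J and the 3 libraries with most POSTN, K2, B2 and L1. Because these 3 were picked by POSTN, their high ratio of POSTN to LUM follows in part from the choice. The ratio of DCN to LUM does not contain POSTN. J1 and J2 were already seen to hold the most DCN, however, so the high DCN to LUM ratio of clone J also follows in part from the choice. For each LUM count, there were 0.00282 POSTN counts in J1 (95% exact binomial interval 0.00113 to 0.00581) and 0.385 (0.272 to 0.537) in J2. The same ratio was 6.19 (5.59 to 6.86) in K2, 8.39 (6.17 to 11.7) in L1 and 5.31 (4.40 to 6.44) in B2. The ratio of DCN to LUM counts was 0.899 (0.849 to 0.953) in J1 and 1.55 (1.24 to 1.95) in J2, against 0.0727 (0.0491 to 0.104) in K2, 0.130 (0.0455 to 0.306) in L1 and 0.0827 (0.0403 to 0.153) in B2. K2, L1 and B2 come from 3 clones, both genotypes and both differentiations, and their intervals for the DCN to LUM ratio overlap each other. In L1 and B2 this ratio rests on 6 and 11 DCN counts. B1, the other library of clone B, lay between, with a POSTN to LUM ratio of 2.17 (1.31 to 3.68) and a DCN to LUM ratio of 0.583 (0.279 to 1.17) from 14 and 24 counts, an interval that holds the value of J1. The POSTN to LUM ratio also lay between in L2 (3.57), A1 (1.67) and A2 (1.33). The interval of L2 holds the values of K2, L1 and B2. With DCN at or under the floor, L2, A1 and A2 were given no DCN to LUM ratio. K1, C1 and C2 were given neither ratio.

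Genes beyond the members, chosen after their values were seen, also differed between J1 and K2. The proteoglycan genes OGN and BGN were opposite: OGN had 48.3 CPM in J1 and 2.34 CPM in J2 but at most 0.353 CPM elsewhere, while BGN had 84.0 CPM in K2 and 15.3 CPM in B2 but 0.977 CPM in J1. PRRX1, a transcription factor of limb and craniofacial mesenchyme, had 12.2 CPM in K2 and 2.75 CPM in B2 against 0.150 CPM in J1. L1, also high in POSTN, had only 3.06 CPM of BGN, and its 0.492 CPM of PRRX1 lay below the 0.580 CPM of A1. SNAI2, another mesenchymal transcription factor, was similar in J1 (4.44 CPM) and K2 (3.52 CPM). ELN, the elastin gene, had 23.7 CPM in B2, 16.2 in K2 and 8.96 in L1 against 0.0376 CPM in J1. Other genes were high in J1 but not in J2. MEOX1, a somite transcription factor, had 6.39 CPM in J1 and at most 0.260 CPM elsewhere, and ABCC9, a potassium channel subunit of pericytes, had 8.50 CPM in J1 and at most 0.211 CPM elsewhere. The keratin genes KRT8 and KRT18 stood at 128 and 82.7 CPM in J1, against 20.4 to 31.7 CPM for KRT8 in the other 11 libraries, J2 included. Whether J1 and the libraries with high POSTN differ in the kind of cell was not tested.

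**Figure D2:**
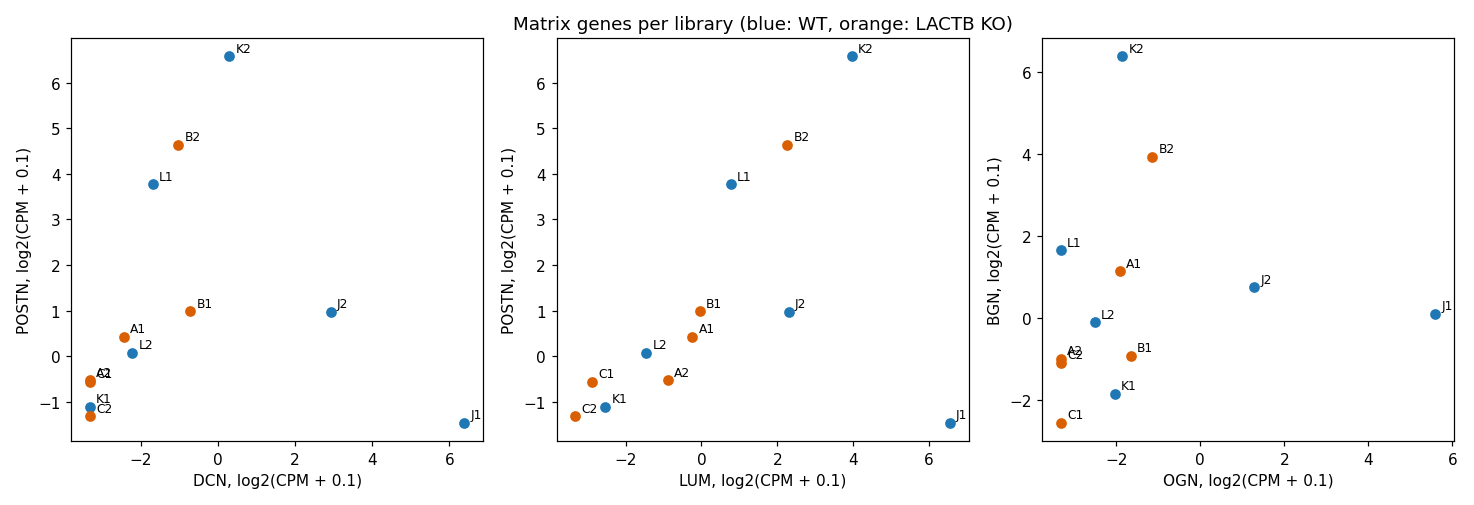
POSTN against DCN, POSTN against LUM and BGN against OGN in 12 iMGL libraries, each axis as log2 of CPM plus 0.1, with WT libraries in blue and LACTB KO libraries in orange. J1 lies at high DCN, LUM and OGN with low POSTN and BGN, and K2 and B2 lie at high POSTN and BGN with low OGN.

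The comparison between genotypes asked whether loss of LACTB goes with a different level of these genes. The mean over the LACTB KO clones was lower than that over the WT clones for all 10 members. Counts were summed over the 2 differentiations of a clone, and 3 LACTB KO clone sums were set against 3 WT clone sums with the edgeR quasi-likelihood test over 17577 genes. PDGFRA and TWIST1 did not pass the expression filter, and since a gene can pass it through the group where it is high, the counts that follow describe only the 8 members tested. All 8 were lower in LACTB KO, against 48.3% of all genes tested, and the median of their log2 fold changes was -2.49, against 0.0067 over all genes tested. None had an adjusted p under 0.05, as was the case for 0% of all genes, and 7 (all but POSTN) were lower with an unadjusted p under 0.05, against 5.56% of all genes. Because most members were high in the same few libraries, they do not count as independent of each other. DESeq2 and limma voom also called 0 of the members tested. By DESeq2, which called 171 of 17577 genes, PDGFRB came near the threshold with an adjusted p of 0.059. ACTA2 followed with a DESeq2 adjusted p of 0.118, and DCN was given no adjusted p.

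The log2 fold changes with their standard errors were -1.97 ± 0.52 for ACTA2, -2.29 ± 0.75 for TAGLN, -1.91 ± 0.57 for PDGFRB and -1.94 ± 1.57 for POSTN. For FN1 the value was -2.69 ± 0.88, for SPARC -3.22 ± 1.16, for LUM -4.07 ± 1.63 and for DCN -6.52 ± 2.36. Their edgeR adjusted p lay between 0.726 and 0.878. DCN and LUM, which had the largest fold changes, also had the largest standard errors, and 2438 of the DCN counts of WT clones came from clone J against 32 from K and 9 from L.

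Clone sums of ACTA2 and TAGLN did not overlap between genotypes, which was 2 of the 8 members tested, against 6.37% of all genes with all 3 LACTB KO clones below all 3 WT clones. ACTA2 stood at 36.0, 15.4 and 12.7 CPM in clones J, K and L and at 3.48, 8.98 and 3.94 CPM in A, B and C. TAGLN stood at 65.1, 64.1 and 32.6 CPM in J, K and L and at 6.12, 24.2 and 2.86 CPM in A, B and C. The exact two-sided permutation test gave p = 0.1 for each, the smallest value that 3 clones against 3 allow. TWIST1, below the filter, had 83, 12 and 4 counts in J, K and L and 0, 3 and 0 in A, B and C, with the same exact permutation p = 0.1. For the other 6 members tested, LACTB KO clone B lay above at least 1 WT clone, as for FN1, with 533 CPM in B against 378 CPM in L, and for SPARC, with 121 against 101 CPM.

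The size of the difference depended on libraries J1 and K2. Both are WT and were picked because these genes were highest there, while B2, the highest LACTB KO library, was kept. Leaving them out therefore moves the difference upward for most members by the choice itself. The same limit applies below to lists that are highest in J1 and K2. With J1 left out of its clone sum the median log2 fold change was -1.98, with K2 left out it was -1.61, and with both left out it was -0.33 over the 7 members that then passed the filter, whose median with all libraries was -2.29. Without both, the log2 fold changes with standard errors were -0.20 ± 0.70 for ACTA2, -0.46 ± 1.05 for TAGLN, -0.33 ± 0.55 for PDGFRB, -0.76 ± 1.504 for LUM and -0.95 ± 1.15 for SPARC. FN1 was then at 0.060 ± 0.71 and POSTN at 0.60 ± 1.40, above 0 instead of below it, and DCN no longer passed the filter. No member was called in any of these fits (edgeR adjusted p from 0.920 to 1.00). Without LACTB KO clone B the median over the same 8 members was -4.29 (-4.84 over the 9 members that then passed the filter), and no member was called either. In differentiation 1 alone the median was -3.11 and in differentiation 2 alone -1.97, with edgeR adjusted p of at least 0.929 for every member tested.

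**Figure D3:**
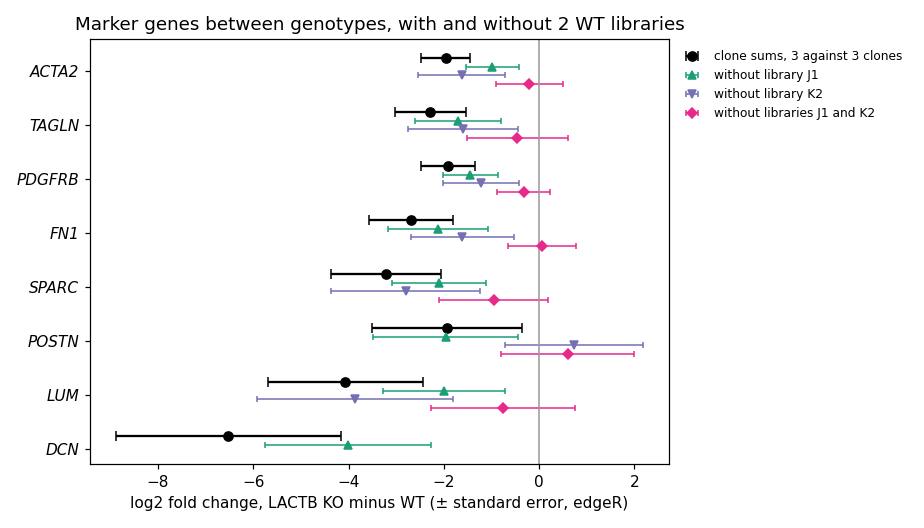
Log2 fold change between LACTB KO and WT clones for the 8 members tested, with edgeR standard errors as bars, from all libraries (black circles), without J1 (green), without K2 (purple) and without both (pink). All 8 lie below 0 with all libraries, and without both libraries the 7 values lie between -0.95 and 0.60 with bars that all reach 0.

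The comparison between differentiations asked whether the genes differed between rounds of culture of the same clone. They differed strongly within clones but in both directions. ACTA2, TAGLN, PDGFRB, LUM, FN1 and SPARC were higher in differentiation 1 in clones J, L, A and C and higher in differentiation 2 in clones K and B. Folds within a clone were taken after adding the prior count of 2, which understates those of low genes. Within clone K, differentiation 2 exceeded differentiation 1 by 221-fold for POSTN, 60.6-fold for TAGLN, 58.2-fold for SPARC and 55.7-fold for FN1, and LUM had 440 counts against 2. Within clone J, differentiation 1 exceeded differentiation 2 by 19.1-fold for LUM, 16.3-fold for ACTA2, 12.97-fold for FN1 and 11.1-fold for DCN. POSTN was the exception in clone J, where differentiation 2 was higher by 5.72-fold (50 against 7 counts). In clone C, FN1 and ACTA2 were each higher by only 1.09-fold in differentiation 1, and LUM had 1 and 0 counts.

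With clone as a fixed effect, the log2 difference between differentiations 2 and 1 was -0.27 ± 1.14 (standard error) for ACTA2, -0.997 ± 1.58 for TAGLN, -0.38 ± 0.92 for PDGFRB and 1.42 ± 1.69 for POSTN. It was -0.059 ± 1.62 for LUM, -0.28 ± 1.38 for FN1 and -0.76 ± 1.45 for SPARC. Of these 7 members tested, 0 had an adjusted p under 0.05 by edgeR or DESeq2, against 0% of the 15530 genes tested by edgeR, and 0 had an unadjusted p under 0.05, against 9.95% of all genes. Exact sign-flip permutation tests over the 6 clones gave p from 0.5 for POSTN to 0.938 for LUM and FN1, where 0.03125 is the smallest possible. The clones thus had no shared direction, although a single clone differed by up to 221-fold.

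The interaction term asked whether the change between differentiations depended on genotype. A positive term was found for 6 of the 7 members, from 0.45 ± 1.98 for PDGFRB to 2.34 ± 3.34 for LUM, and POSTN had -1.71 ± 3.76. Over all genes tested, 50.4% had a negative term. Most members were high in the same few libraries, so their signs are not independent. By edgeR and DESeq2, 0 of 7 had an adjusted p under 0.05, against 0% of all genes by edgeR, and 0 of 7 had an unadjusted p under 0.05, against 0.908% of all genes. The standard errors exceeded the terms for all 7 members.

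**Figure D4:**
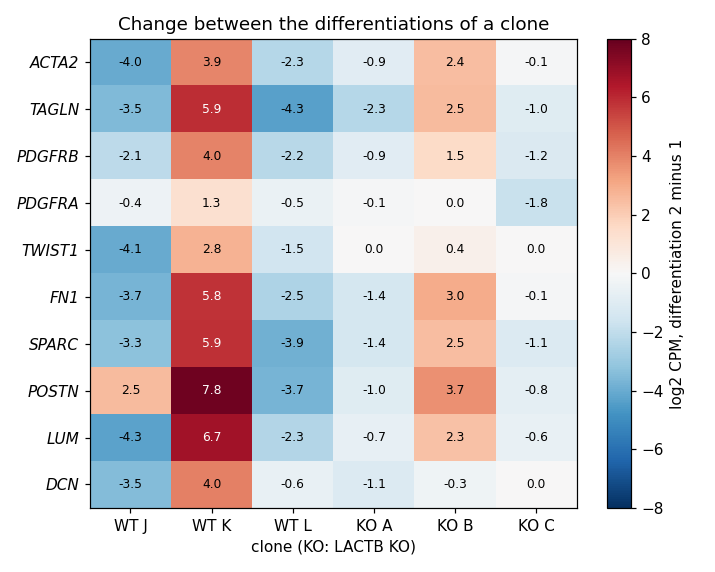
Difference in log2 CPM between differentiations 2 and 1 of the same clone for the 10 marker genes, with red for higher in differentiation 2 and blue for higher in differentiation 1. Clone K is red for all 10 genes, B for most, and J and L are blue except for POSTN in J.

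Other genes of the same cell types were counted in lists that hold none of the members. Over all genes tested, 48.3% were lower in LACTB KO and 5.56% were lower with an unadjusted p under 0.05. Of 27 fibroblast matrix genes tested, 26 were lower and 17 of them had an unadjusted p under 0.05, with a median log2 fold change of -2.52 and 0 calls after adjustment. Without J1 and K2, 19 of 26 were lower, 0 had an unadjusted p under 0.05 and the median was -0.18, where 48.2% of all genes were lower and 2.02% were lower with that p. The genes with the smallest p were TIMP3, a metalloproteinase inhibitor, at -2.96 ± 0.77, and FBLN2, fibulin 2, at -2.09 ± 0.56. TIMP3 had 81.3 CPM in J1 and 52.3 CPM in K2 and at most 7.93 CPM in the other 10 libraries, and without both libraries its log2 fold change was -0.63 ± 0.48 and that of FBLN2 -0.86 ± 0.64. FBLN1, fibulin 1, was the gene that was higher with all libraries, at 0.36 ± 0.36. It ran from 28.3 to 191 CPM and was highest in L2. Among the small leucine-rich proteoglycans, 4 of 10 were tested and all 4 were lower with 0 at an unadjusted p under 0.05, with BGN, biglycan, at -2.28 ± 1.61 and FMOD, fibromodulin, at -1.15 ± 0.92. Without J1 and K2 only BGN passed the filter, at 1.30 ± 1.25, which is the opposite sign. KERA and EPYC, further proteoglycan genes, had 0 counts in all 12 libraries.

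Smooth muscle contractile genes were mostly lower in LACTB KO. Of 15 tested, 14 were lower in LACTB KO and 8 had an unadjusted p under 0.05, with a median of -1.92 and 0 calls after adjustment. Over all genes tested, 48.3% were lower and 5.56% were lower with that p. When J1 and K2 were left out, 11 of 13 were lower, 0 had that p and the median was -0.46, against 48.2% and 2.02% of all genes. The tropomyosin genes TPM2 and TPM1, with the smallest p, stood at -2.02 ± 0.39 and -1.92 ± 0.52, and TPM2 reached 58.1 CPM in J1, 46.1 in K2 and 28.8 in L1. In the fit without J1 and K2 they stood at -0.62 ± 0.65 and -0.33 ± 0.57. The further genes of this list were chosen after their values were seen. CNN1, calponin, had 9.02 CPM in J1, 4.39 in L1, 3.14 in K2 and 2.86 in B2 and at most 0.542 CPM elsewhere. ACTG2, an enteric smooth muscle actin, was highest in L1 with 14.4 CPM, followed by J1 with 5.04, B2 with 4.94 and K2 with 3.66 CPM. SYNPO2, an actin-bundling protein, reached 28.5 CPM (758 counts) in J1 and LMOD1, leiomodin, 2.86 CPM (76 counts). MYOCD, the myocardin coactivator of smooth muscle genes, had 1.99 CPM (53 counts) in J1 and 0.775 CPM in K2. MYH11, the myosin heavy chain of differentiated smooth muscle, stayed between 0.217 and 0.703 CPM, and DES, desmin, had 2 counts or fewer in every library. Several smooth muscle genes were thus high in libraries with high ACTA2 and TAGLN, while MYH11 and DES were at or under 20 counts in every library. Other expressed genes of the list varied much less. SRF ran from 57.4 to 90.3 CPM, CSRP1 from 94.3 to 157 CPM, SMTN from 4.72 to 9.28 CPM and MYLK from 1.01 to 4.71 CPM. SRF was highest in C2 and MYLK in L1.

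Of the pericyte genes 5 of 10 were tested, all 5 were lower and 1 had an unadjusted p under 0.05. For this and the next lists, 48.3% of all genes were lower and 5.56% were lower with that p. Without J1 and K2 these shares were 48.2% and 2.02%. MCAM, an adhesion molecule, was at -1.35 ± 0.50 and CD248, endosialin, at -2.18 ± 0.93, and HIGD1B had 0 counts in all libraries. With both libraries left out, 3 of 5 were lower and 0 had that p, with MCAM at -0.25 ± 0.75 and CD248 at 0.47 ± 0.87, the opposite sign. Of the mesenchymal transcription factors 9 of 16 were tested, with 6 lower, 3 higher and 2 lower at an unadjusted p under 0.05. These were NR2F1 at -1.07 ± 0.34 and SNAI2, a repressor of epithelial genes, at -3.48 ± 1.20. SNAI2 had 4.44 CPM in J1 and 3.52 CPM in K2 and at most 0.630 CPM in the other libraries, and without both it did not pass the filter, whereas NR2F1 was at -0.79 ± 0.34 and 2 of 7 factors were lower. The 3 higher factors did not peak in J1 or K2. TBX18 ran from 24.1 to 41.5 CPM, ZEB1 from 15.7 to 25.6 CPM and SNAI1 from 2.09 to 40.7 CPM. The summed list was highest in L2 with 98.2 CPM, against 78.0 in J1 and 91.4 in K2. Among the ligands of the PDGF receptors, PDGFC (-0.61 ± 0.18) and PDGFB (-0.99 ± 0.35) were lower with an unadjusted p under 0.05, and of all 4 ligands 3 were lower and 1 was higher. Leaving out J1 and K2, these counts were the same, with PDGFC at -0.66 ± 0.24 and PDGFB at -1.30 ± 0.41. In that fit clone J was library J2 alone, which was the highest library for PDGFC (23.2 CPM) and PDGFB (5.41 CPM). After adjustment, 0 genes of these lists were called by edgeR.

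The summed microglial list was near constant while the members ranged widely, but single markers were not. Between genotypes 11 of the 21 were higher and 10 lower in LACTB KO, the median log2 fold change was 0.0019, and 2 had an unadjusted p under 0.05, MERTK at -0.43 ± 0.16 and TMEM119 at -2.02 ± 0.84. Over the same libraries in which the 10 marker genes summed to between 101 and 6337 CPM, the microglial list stayed within 11730 and 14410 CPM, a sum led by abundant genes such as LAPTM5. J2 was the highest library for 11 of the 21 markers. CD68, a lysosomal protein, ran from 346 to 1362 CPM and TREM2, a lipid receptor, from 111 to 406 CPM, both highest in J2, as was TMEM119. Without J1 and K2, 13 were lower and 8 higher, and 2 had an unadjusted p under 0.05, with MERTK at -0.65 ± 0.24 and TMEM119 at -2.67 ± 1.03. Of all genes, 5.56% were lower with that p with all libraries and 2.02% without J1 and K2. In the fit without J1 and K2, clone J was library J2 alone. J2 was the highest library for MERTK (122 CPM) and TMEM119 (10.6 CPM), so their larger differences there rest in part on J2.

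**Figure D5:**
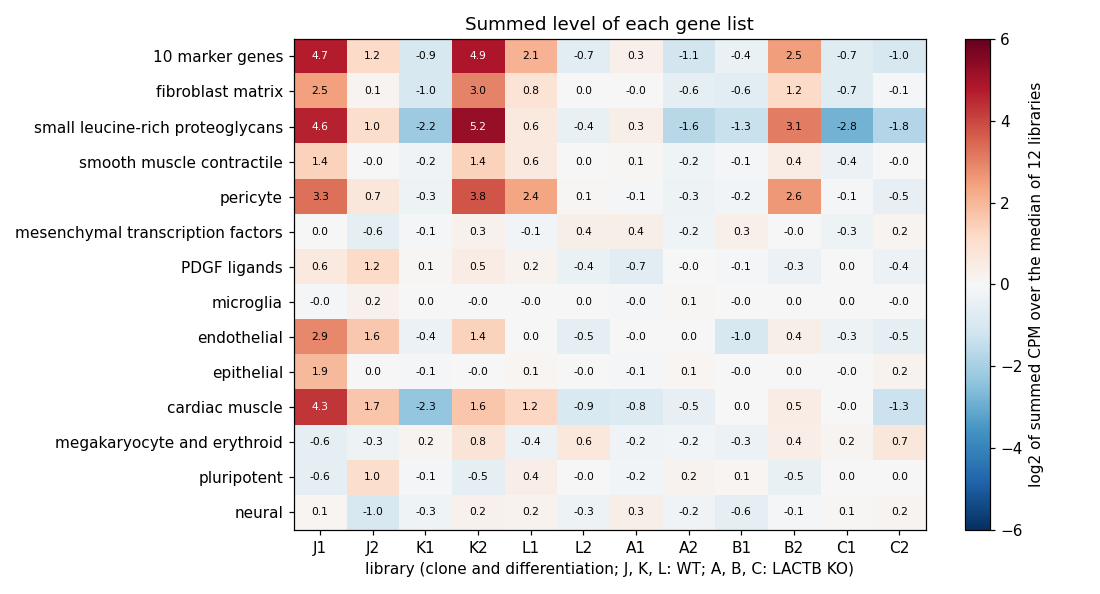
Summed CPM of each gene list in 12 libraries, as log2 of the ratio to the median library, for the 10 marker genes and 13 other lists. Red marks libraries above the median, and J1 and K2 are highest for the marker genes, the matrix, proteoglycan, contractile and pericyte lists, while the summed microglial list is nearly constant.

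Genes whose profile over the 12 libraries was nearest to the mean of the 8 members were named by a fixed rule, the root mean square difference of centered log2 CPM. LOX, lysyl oxidase, which cross-links collagen and elastin, was nearest with 0.237 log2 units. It was followed by CALD1, caldesmon of the actin cytoskeleton, with 0.303, UCHL1, a ubiquitin hydrolase, with 0.337, AEBP1, a matrix protein, with 0.339, and RAI14, an actin-associated protein, with 0.364. LOX ran from 1.38 to 143 CPM and CALD1 from 2.99 to 175 CPM, both with the highest value in J1. Among the members themselves, FN1 (0.602) and TAGLN (0.604) were nearest to the mean of the other members, and DCN (2.05) and POSTN (2.36) were farthest. LOX and CALD1 are also in the matrix and contractile lists, and all profiles share the same 12 libraries.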

How the data were processed

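Bulk RNA-seq of 12 WTC11 iMGL libraries was analysed. After adapter removal with Cutadapt and STAR alignment to hg38, the authors deposited unscaled estimated counts for genes; the counting tool, its annotation and strand setting are not given in the sources used here. Fractions made up 10.8% to 11.5% of each library's values, where whole counts had been planned for, so values were rounded. Gene coordinates, lengths and overlaps came from GENCODE on GRCh38, with 62639 of 62703 identifiers matched.

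Fits used edgeR 4.0.16 (TMM, filterByExpr, quasi-likelihood test, Benjamini-Hochberg, threshold 0.05) in R 4.3.3, with limma 3.58.1 and DESeq2 1.42.0 as alternatives, and were tested on simulated data. The clone was the replicate between genotypes, and clone was a fixed effect between differentiations. The study's mixed model was not used here. Log2 CPM used a prior count of 2. All clones come from 1 parental line, so p-values of the main genotype test measure the spread between clone sums of that line. That spread includes the differences between cultures of a clone. The p-values between differentiations and of the interaction measure the spread of changes within clones.

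The members and lists were chosen with earlier results of these data known. Named genes were the 10 members, the 2 genes of each list with the smallest p between genotypes, the 5 genes nearest to the members' mean profile, and LACTB. Further genes were named after their values were seen (OGN, PRRX1, ELN, MEOX1, ABCC9, MYH11, DES, KERA, EPYC, HIGD1B, CNN1, ACTG2, SYNPO2, LMOD1, MYOCD, SRF, CSRP1, SMTN, MYLK, FBLN1, TBX18, ZEB1, SNAI1, CD68, TREM2, LAPTM5, and KDR, CDH5, ACTC1, POU5F1, NANOG, PF4 and PPBP in the closing section). Fits without J1 and K2 were added after seeing the data.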

Additional observations from a re-analysis of the deposited data

Results flagged for a closer look

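In 20 groups of 6 libraries (10 members in each genotype), 1 library stood apart from its group on the log2 CPM scale by Dixon's criterion, and chance alone gives about 1 in 20. ACTA2 in B2 was the highest of the LACTB KO libraries, with a gap to the next of 0.649 of the whole range, above the critical value of 0.625. Its level was 15.0 CPM, and the other 5 LACTB KO libraries lay between 2.44 and 4.64 CPM.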

How the results depend on the processing

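The number of members called was 0 in each comparison under every alternative run, which included RLE normalization, library totals alone, no filter on low counts, DESeq2 and leaving out each clone. With the differentiation as replicate block in 12 libraries, 0 members were called between genotypes and the median log2 fold change was -2.35; limma voom with clone as random effect gave -1.74. Between genotypes, POSTN was above 0 without K2 (0.73) and without J1 and K2 (0.60), and FN1 without J1 and K2 (0.060). Leaving out single clones moved POSTN between -4.84 and 0.23. Between differentiations, with clone left out of the model (no replicate block), the log2 difference was 0.30 for TAGLN, 0.12 for PDGFRB, 0.86 for FN1 and 0.19 for SPARC, and in LACTB KO clones alone it was 0.46 for ACTA2, 0.82 for LUM and 0.40 for FN1. In WT clones alone it was -1.53, -1.42 and -1.46 for these and -1.98 for SPARC. Leaving out single clones moved it between -1.08 and 0.52 for ACTA2, -1.12 and 0.16 for PDGFRB, -1.48 and 1.15 for LUM, -1.14 and 0.60 for FN1, and -1.66 and 0.11 for SPARC. The interaction term moved between -0.33 and 3.67 for ACTA2, -1.29 and 3.76 for TAGLN, -1.15 and 2.11 for PDGFRB, -1.36 and 4.93 for LUM, -1.29 and 3.46 for FN1, -1.34 and 3.52 for SPARC, and -5.22 and 1.78 for POSTN. The cause of these reversals was not tested. DESeq2 called 171 genes between genotypes and 299 between differentiations, against 0 and 0 by edgeR. The fit with no filter called 2 and 80. Members with few counts (PDGFRA, TWIST1 and, outside clone J, DCN) are limited by depth.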

Other observations

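Lists of other cell types gave further values for the libraries with high mesenchymal transcripts. The summed level of 10 endothelial genes was highest in J1 at 11.9 CPM, with KDR, a VEGF receptor, at 6.20 CPM in J1 and 2.41 CPM in J2 and at most 0.221 CPM elsewhere, whereas CDH5, the endothelial cadherin, was at most 0.0752 CPM. TEK and VWF, with the smallest p of that list, had log2 fold changes between genotypes of -1.90 ± 0.78 and -0.48 ± 0.31. Among 7 cardiac muscle genes, TNNT2 had 2.59 CPM and ACTC1 3.83 CPM in J1, and TNNT2 had a log2 fold change of -3.72 ± 1.10. Without J1 and K2, TNNT2 and TEK did not pass the filter and VWF was at -0.68 ± 0.35. KDR and ACTC1 were named after their values were seen.

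The other lists had few tested genes and 0 calls after adjustment by edgeR. KRT18 and KRT8 of the epithelial list had log2 fold changes of -0.46 ± 0.29 and -0.69 ± 0.48, and of 0.15 ± 0.12 and 0.060 ± 0.14 without J1 and K2. Of the pluripotent list, L1TD1 was at -1.46 ± 0.44 and DNMT3B at 0.37 ± 0.13, both with an unadjusted p under 0.05, and POU5F1 and NANOG were below the expression filter. Of the neural list, MAP2 was at -0.79 ± 0.32 and ELAVL4 at 0.35 ± 0.23, and without J1 and K2 they were at 0.026 ± 0.21 and 0.44 ± 0.36. Of the megakaryocyte and erythroid list, KLF1 was at -0.23 ± 0.49 and ITGA2B at 0.0030 ± 0.30, and PF4 and PPBP had 0 counts in all libraries.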
